A study of Mus musculus with 7 samples.

Results

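The proteasome genes of Med23-deficient and control hippocampal neurospheres are described here. The members are the 48 genes, of 24346 in the expression table, whose symbol is Psma, Psmb, Psmc, Psmd, Psme, Psmf or Psmg followed by a number. Primary neurospheres, floating clusters grown from neural stem cells (NSCs) with FGF and EGF, were made from the hippocampus of single adult C57/BL6 mice, and their RNA was sequenced in 7 libraries with 1 mouse each. The 3 Med23 CKO mice (KO_117, KO_214 and KO_218) were Nestin-CreER:Med23 flox/flox, so that tamoxifen activates Cre in Nestin-expressing cells and removes exons of Med23, a subunit of the Mediator complex that links transcription factors to RNA polymerase II. The 4 control mice (WT_215, WT_116, WT_213 and WT_220) were littermates that the labels call wild type, while the methods of the study describe littermate controls as Med23 flox/+ or flox/flox. Both groups received tamoxifen at 200 mg/kg by gavage for 5 days, at the age of 2 months per the labels and of 1 month per the methods for cultures. All control libraries were used, although the study counts fewer control mice and does not name them.

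The proteasome is the barrel-shaped protease that degrades ubiquitin-tagged proteins in the cytosol and nucleus. Its 20S core is built of rings of alpha and beta subunits, and the 19S cap, with a ring of ATPases and a set of non-ATPase subunits, binds, unfolds and feeds in the substrates. In cells exposed to interferon and in immune cells, the catalytic beta subunits Psmb5, Psmb6 and Psmb7 are replaced by Psmb8, Psmb9 and Psmb10, which form the immunoproteasome and favour peptides for presentation on MHC class I. Other activators (Psme1 to Psme4) can take the place of the 19S cap, and the genes Psmg1 to Psmg4 encode chaperones that assemble the core.

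Levels are given as FPKM, fragments per kilobase of transcript scaled to the number of mapped fragments, which allows levels of different genes to be compared. Differences are Med23 CKO minus control in mean log2(FPKM + 1), with the 95% interval of limma, and understate the change of low genes. The targeted gene, Med23, was at 11.4, 10.3, 12.9 and 10.1 FPKM in the control libraries (in the order WT_215, WT_116, WT_213, WT_220, kept below) and at 9.97, 9.27 and 8.12 FPKM in KO_117, KO_214 and KO_218. Each Med23 CKO library was under the lowest control library, with a difference of -0.26 (95% interval -0.68 to 0.15, exact permutation p = 0.0571). FPKM of the whole gene does not show which exons were read. The depth of the libraries is unknown. In bulk samples of this kind, fewer cells of a type and less RNA per cell cannot be told apart. Of the cell type markers, NSC genes summed to 1894 to 3836 FPKM in control and 2085 to 3832 in Med23 CKO libraries, and oligodendrocyte lineage genes to 2590 to 4641 and 2235 to 2783. These sums hide genes that went opposite ways. In KO_214, Fabp7 was the lowest of all libraries at 203 FPKM and Gfap the highest at 321 FPKM. Olig1 and Mbp were at 1586 and 66.5 FPKM in KO_117, and at 437 and 2234 FPKM in WT_116. The microglia and macrophage genes stood apart in KO_214, with 1402 FPKM in all against 49.98 to 312 in the other libraries.

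No proteasome gene differed between Med23 CKO and control neurospheres past the threshold of a test across genes. Of the 48 members, 46 had a mean of at least 0.5 FPKM and were tested among 14151 genes. At an adjusted p under 0.05 in limma, 0 members were called, as were 0 of all genes tested (0%), and at an unadjusted p under 0.05 there were again 0 members, against 1.50% of all genes. Med23, the targeted gene, was not called either, with an unadjusted p of 0.175 in limma. The study, with fewer control mice and by Cuffdiff, reports genes called in both directions. The exact permutation test per gene gave 1 member under 0.05, Psmc1, against 1.26% of all genes. In 0 members did all Med23 CKO values lie above all control values (0.784% of all genes), and in 1 member, again Psmc1, they all lay below (1.53% of all genes). The mean was higher in Med23 CKO for 20 members and lower for 26, and the median difference of the members was -0.02, beside -0.03 for all genes tested.

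These data limit how large a difference could have been missed. The 95% interval of the difference lay within -1 and 1, which is within 2-fold, for 42 of 46 members (91.3%), against 63.8% of all genes tested. The exceptions were Psmb8, Psmb9, Psmd3 and Psmg4. Of the 31 core and cap subunits, 22 (71.0%) had an interval within -0.5 and 0.5, or 1.41-fold, against 9.96% of all genes and 18.9% of the 1826 genes with a mean of at least 50 FPKM. Smaller differences cannot be told from none at this number of libraries. The plot of differences shows that the intervals of the core and cap subunits were narrow except for Psmd3.

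**Figure D1:**
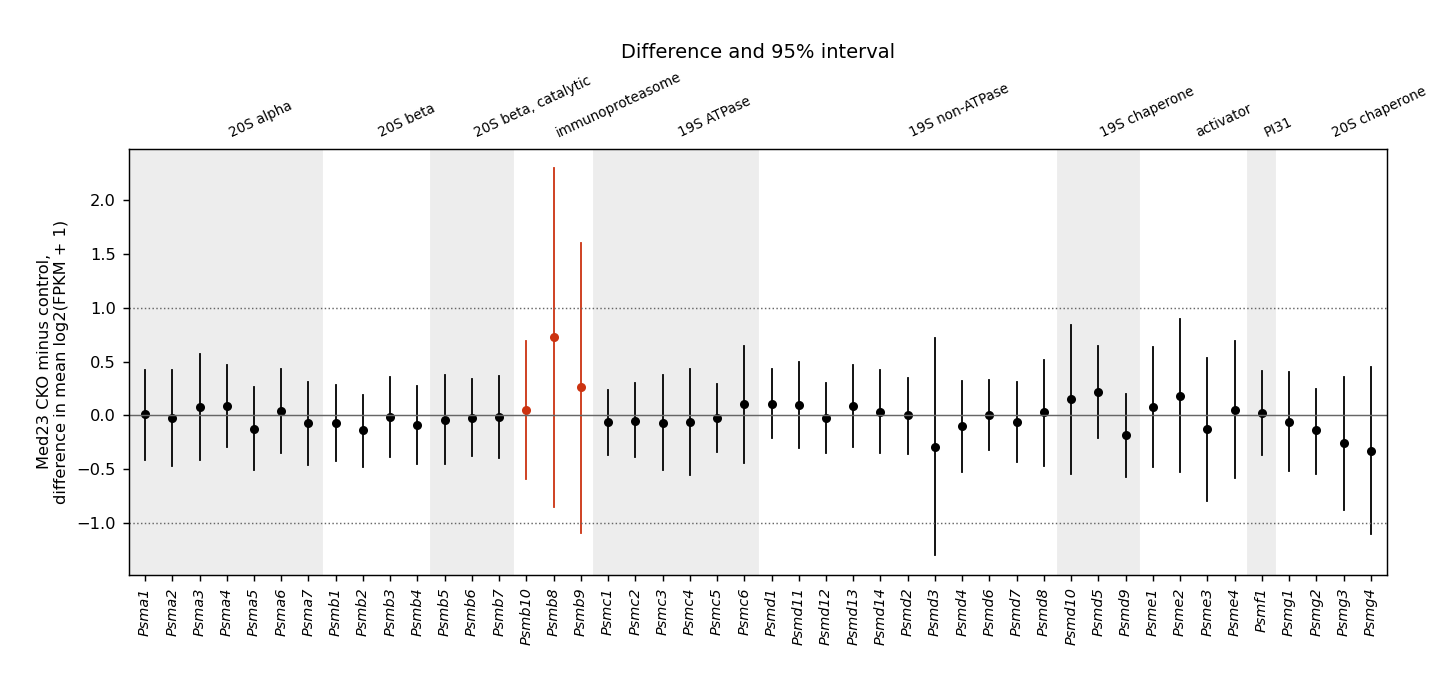
Difference between Med23 CKO (n = 3) and control (n = 4) neurospheres in mean log2(FPKM + 1) for the 46 proteasome genes tested, on the vertical axis, by role of the gene on the horizontal axis. Points are differences, vertical lines are 95% intervals of limma, dotted lines mark 2-fold, and the immunoproteasome subunits are in red; every interval includes 0, and Psmb8 has the widest, from -0.85 to 2.30.

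Most members were among the more abundant messages, and most had a small spread between mice. The 45 members other than the immunoproteasome subunits summed to 4581 to 4848 FPKM in control and 4557 to 4855 in Med23 CKO libraries, that is 0.886% to 0.987% and 0.851% to 1.03% of the summed FPKM of a library. The median member lay at the 93.6 to 94.5 percentile of the genes tested in its library. The 14 core subunits had means from 126 to 294 FPKM, a 2.32-fold range, and the 17 cap subunits had means from 63.0 to 152 FPKM, a 2.42-fold range. Of the 14 core subunits, 10 were above every cap subunit, and the medians of the means were 189 FPKM for the core and 92.3 for the cap. The order of the levels was kept between libraries, with a Spearman correlation over 43 members from 0.891 to 0.99 in the 21 pairs of libraries, which is given as a description since all points share the length scaling.

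The median SD of log2(FPKM + 1) over the 7 libraries was 0.168 for the 43 tested members other than the immunoproteasome subunits, and 0.366 for all genes tested. Among genes with a mean of at least 50 FPKM it was 0.155 for the 34 members and 0.332 for all 1826 genes. The highest library was under 1.5 times the lowest for 28 of 43 members (65.1%), against 13.9% of all genes and 23.9% of those with at least 50 FPKM. The ratio ran from 1.09 for Psmc1 to 2.81 for Psmd3. The plot of levels by library shows both ends of this range, with the core and cap in a band and the immunoproteasome subunits far below it.

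**Figure D2:**
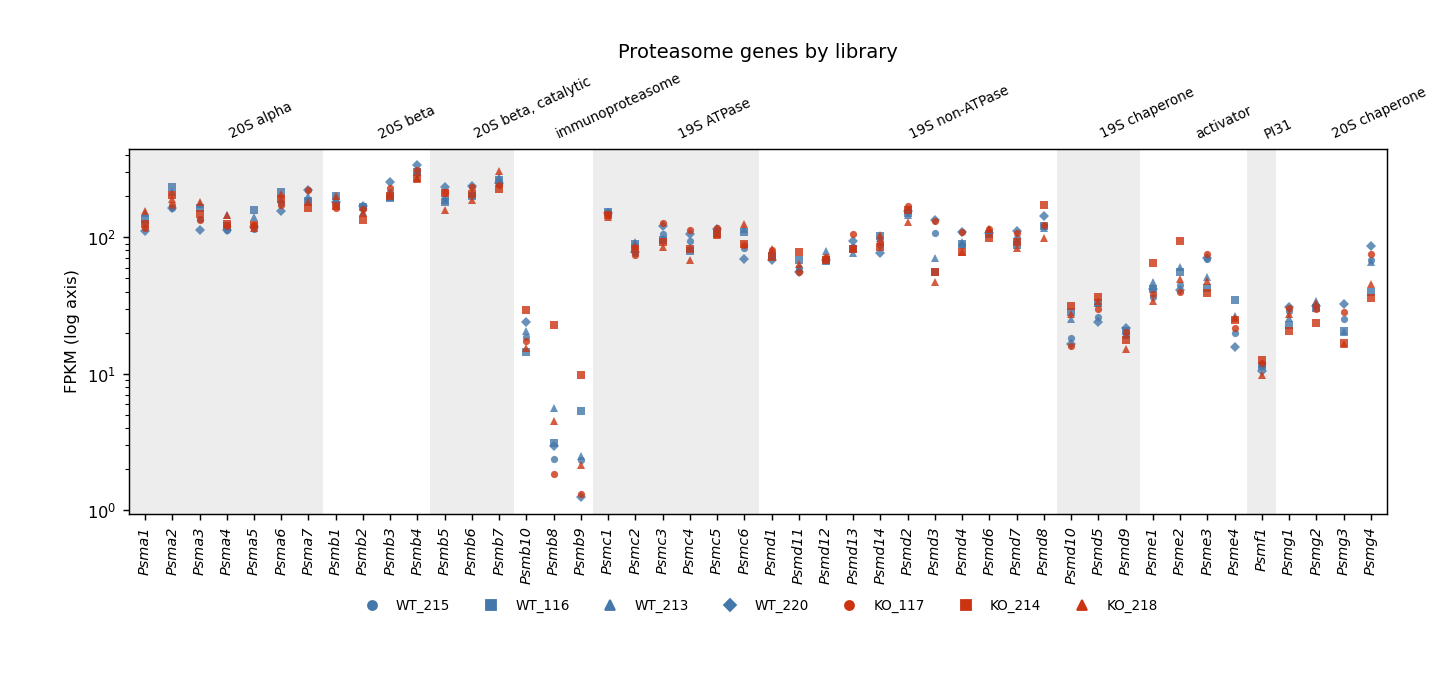
FPKM of the 46 tested proteasome genes in each of the 7 libraries (log axis), grouped by role, with control libraries in blue and Med23 CKO libraries in red and a marker shape for each mouse. Most core and cap subunits sit near or above 100 FPKM with the libraries close together, and Psmb8 and Psmb9 lie under 10 FPKM except for Psmb8 in KO_214.

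In the alpha ring of the core, which gates the entry of substrates, the 7 differences ran from -0.13 to 0.09 with a median of 0.01. Psma4 had the highest, with 112, 121, 145 and 114 FPKM in the control libraries and 120, 125 and 146 in KO_117, KO_214 and KO_218 (difference 0.09, 95% interval -0.29 to 0.47). Psma5 had the lowest, with 115, 159, 141 and 120 FPKM in control and 123, 123 and 117.4 in Med23 CKO libraries (difference -0.13, 95% interval -0.51 to 0.26). Both genes overlapped between the groups, and for Psma5 the control libraries WT_116 and WT_213 were the high ones.

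All 4 beta subunits without a catalytic site had a lower mean in Med23 CKO, with a median difference of -0.08. Psmb4 was the most abundant of all members, at 301 ± 26.7 FPKM (SD, n = 4) in control neurospheres, against 283 ± 22.6 (SD, n = 3) in Med23 CKO. Its values were 294, 302, 273 and 337 FPKM in the control libraries and 309, 273 and 268 in the Med23 CKO libraries, which overlap (difference -0.09, 95% interval -0.45 to 0.27). Psmb2 was lowest in KO_214 and KO_218, with 163, 167, 152 and 170 against 160, 133 and 150 FPKM, and only KO_117 lay within the control range (difference -0.14, 95% interval -0.48 to 0.19). For Psmb3, at 214.6, 193, 197 and 252 against 228, 200 and 207 FPKM, the difference was -0.01 (95% interval -0.39 to 0.36).

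The constitutive catalytic subunits, which cut the peptide chain, had near-equal means in the 2 groups. Psmb5, the chymotrypsin-like subunit, had 195, 180, 186 and 233 FPKM in control and 214.01, 210 and 160 in Med23 CKO libraries (difference -0.04, 95% interval -0.45 to 0.38). Psmb6, the caspase-like subunit, had 204, 202, 209 and 239 against 235, 209 and 188 FPKM (difference -0.02, 95% interval -0.38 to 0.34). Psmb7, the trypsin-like subunit, had 246, 264, 276 and 248 against 242, 227 and 305 FPKM (difference -0.01, 95% interval -0.40 to 0.37). KO_218 was the lowest library for Psmb5 and Psmb6 and the highest for Psmb7, so the 3 genes did not share an order of libraries.

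Their immunoproteasome counterparts were far less abundant and were highest in the same Med23 CKO mouse, KO_214. Psmb8, the counterpart of Psmb5, had 2.34, 3.10, 5.60 and 2.95 FPKM in control libraries and 1.84, 22.9 and 4.49 in KO_117, KO_214 and KO_218. KO_214 was 4.08 times the highest control, whereas KO_117 was below every control and KO_218 within their range. The difference in Psmb8 was 0.73 (SE 0.67, 95% interval -0.85 to 2.30, exact permutation p = 0.514). Without KO_214 it was -0.14, and without KO_117 it was 1.40, where Psmb8 had an unadjusted p of 0.0468 and an adjusted p of 0.596 in limma.

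Psmb9, the counterpart of Psmb6 and the least abundant member tested, had 2.32, 5.32, 2.49 and 1.24 FPKM in control and 1.31, 9.75 and 2.15 in Med23 CKO libraries. KO_214 was 1.83 times the highest control, WT_116, and the other Med23 CKO libraries lay within the control range. Its difference of 0.26 (SE 0.58, 95% interval -1.09 to 1.60, exact permutation p = 0.686) was -0.41 without KO_214 and 0.70 without KO_117. Psmb10, the counterpart of Psmb7, had 18.6, 14.3, 20.6 and 24.0 against 17.3, 29.2 and 15.3 FPKM. KO_214 was again highest, at 1.21 times the highest control, and the difference was 0.05 (95% interval -0.59 to 0.69, exact permutation p = 0.857) with all libraries, -0.22 without KO_214 and -0.08 without WT_116. All 3 differences thus turned negative without KO_214, and the 3 genes summed to 22.7 to 28.7 FPKM in control and to 20.4, 61.8 and 21.9 in KO_117, KO_214 and KO_218.

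As a share of the pair, Psmb8 made up 1.19% to 2.92% of Psmb8 and Psmb5 together in the control libraries and 0.851%, 9.83% and 2.73% in KO_117, KO_214 and KO_218. Psmb9 was 0.516% to 2.57% of its pair with Psmb6 in control and 0.553%, 4.46% and 1.13% in the Med23 CKO libraries. Psmb10 held a larger share of its pair with Psmb7, at 5.15% to 8.81% in control and 6.68%, 11.4% and 4.76% in the Med23 CKO libraries. In every library the constitutive subunit was the more abundant of its pair, as the plot of the pairs shows.

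**Figure D3:**
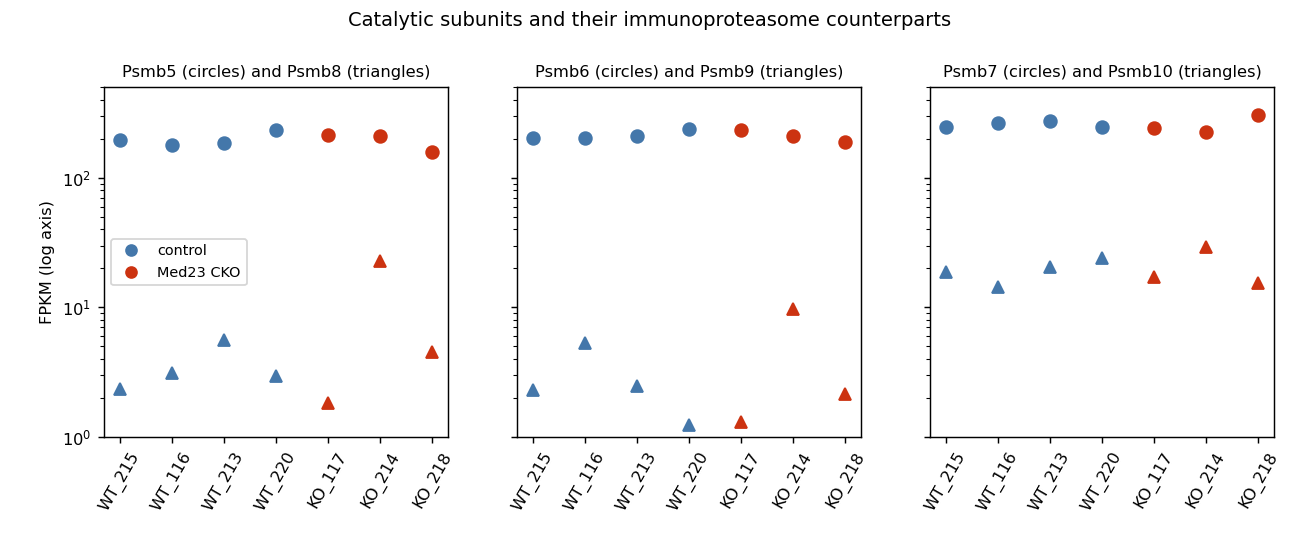
FPKM (log axis) of the constitutive catalytic subunits (circles) and of their immunoproteasome counterparts (triangles) in each of the 7 libraries, control in blue and Med23 CKO in red. The circles stay between 160 and 305 FPKM, while the triangles of KO_214 are the highest in each panel, at 22.9 FPKM for Psmb8, 9.75 for Psmb9 and 29.2 for Psmb10.

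Genes of other lists were also highest in KO_214, the library in which the immunoproteasome subunits were highest. Of 15 microglia and macrophage genes, all listed above 0 in every library, 14 were tested, of which 14 averaged higher in the Med23 CKO libraries and 0 passed an unadjusted p of 0.05 in limma. Their sum was 113, 220, 312 and 49.98 FPKM in the control libraries and 50.6, 1402 and 229 in KO_117, KO_214 and KO_218. Tyrobp, at 492 FPKM, was the largest part of the sum in KO_214. Cx3cr1, which was not tested, was highest in WT_213 (0.782 FPKM) and lower on average in Med23 CKO (0.330 against 0.382 FPKM). P2ry12 was highest in WT_116 (1.60 FPKM). The 15 genes of interferon response and class I antigen presentation, also above 0 in every library, had a higher mean in Med23 CKO for 12 and an unadjusted p under 0.05 for 0, with a median difference of 0.48. They summed to 250, 503, 390 and 188 FPKM in control and 101, 1640 and 469 in Med23 CKO libraries. In KO_214, B2m (1090 FPKM) and H2-D1 (277 FPKM), both of class I presentation, were the largest parts of this sum. The interferon-induced genes Isg15 and Ifit1 were at 19.1 and 4.43 FPKM there. KO_214 was thus the highest and KO_117 the lowest or next to lowest library for these lists as for Psmb8, whereas Psmb10 was next to highest in WT_220 and lowest in WT_116, and their part in the result was not tested.

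Single genes of the interferon list differed in how far KO_214 stood above the highest control. The ratio was 3.33 for B2m, the light chain of MHC class I, and 4.00 for Irf8, a transcription factor of myeloid cells. It was 1.23 for Irf1, an interferon-induced activator of the immunoproteasome genes, 1.03 for the peptide transporter gene Tap1 and 2.22 for Tap2. The 8 endothelial genes, all above 0, also had their highest sum in KO_214, at 123 FPKM against 6.60 to 69.7 in the other libraries. The plot of summed levels sets these lists beside the proteasome genes, whose sum stayed within 4557 to 4855 FPKM.

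**Figure D4:**
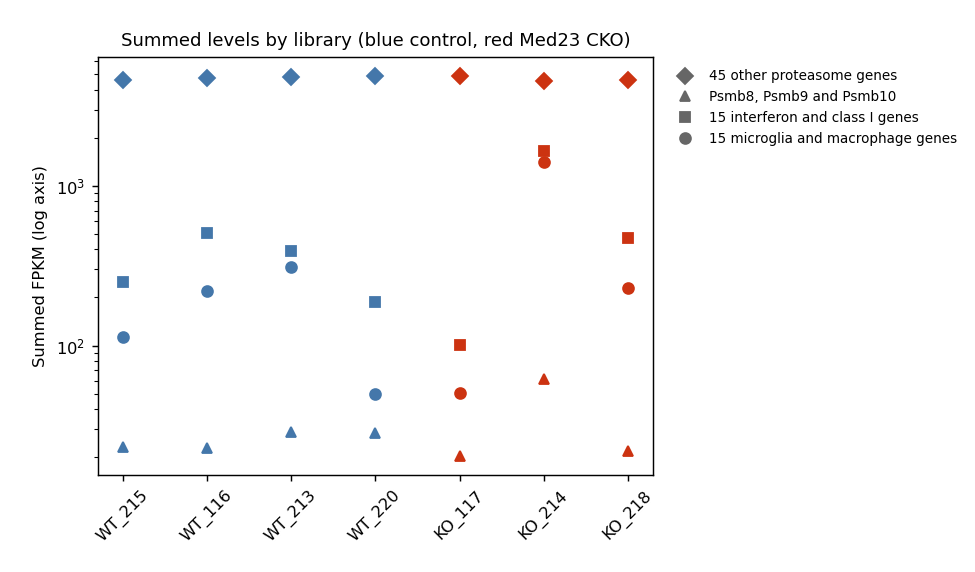
Summed FPKM per library (log axis) of the 45 proteasome genes other than Psmb8, Psmb9 and Psmb10 (diamonds), those 3 subunits (triangles), 15 interferon and class I genes (squares) and 15 microglia and macrophage genes (circles), control in blue and Med23 CKO in red. The diamonds stay between 4557 and 4855 FPKM, and the other 3 sums are highest in KO_214, at 61.8, 1640 and 1402 FPKM.

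Psmb8 and Psmb9 lie in the MHC region of chromosome 17 beside the Tap genes. In the GRCm38.p6 assembly Psmb9 occupies 34182030 to 34187330, Tap1 34187556 to 34197225, Psmb8 34198195 to 34201454 and Tap2 34204479 to 34216321 of chromosome 17. Psmb9 and Tap1 are transcribed away from each other, from starts that RefSeq places 226 bases apart. Psmb10 lies outside this region, on chromosome 8 (105935728 to 105938392). In GENCODE, where some transcripts start elsewhere, those of Psmb9 and Tap1 share 212 exon bases on opposite strands. Transcripts of Psmb8 share some with the antisense gene Gm20496. The library kit did not keep the strand, so reads of these stretches cannot be told apart between the genes.

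The 250 bases before the start given in RefSeq's promoter sequences (GRCm38.p6) were read for 40 of the 48 members, in 43 windows. Starts differ between transcripts, and 10 of the 43 windows, that of Psmb6 among them, reach into the gene as RefSeq's gene table places it. The window of Psmb5 and a short stretch of that of Psmb8 are printed, as the catalytic pair in which KO_214 stood furthest from the other libraries. Capitals mark matches to TGACNNNGC (an antioxidant response element, bound by Nfe2l1 and Nfe2l2) or TTCNNNGAA (bound by STAT factors), each searched on both strands.
Psmb5, chr14:54617996-54618245, minus strand: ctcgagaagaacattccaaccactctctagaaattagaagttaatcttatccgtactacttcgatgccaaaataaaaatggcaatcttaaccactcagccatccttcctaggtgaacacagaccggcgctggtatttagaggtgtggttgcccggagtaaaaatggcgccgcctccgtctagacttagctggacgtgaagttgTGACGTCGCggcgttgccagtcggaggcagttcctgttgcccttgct
Psmb8, chr17:34198088-34198116, plus strand: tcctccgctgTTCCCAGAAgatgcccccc

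TGACNNNGC was found 47 to 39 bases before the start of Psmb5. It was present in 5 of the 43 member windows (11.6%), those of Psmb5, Psmb6, Psmc6, Psmd9 and Psmd12, and in 10.2% of all 32851 windows. TTCNNNGAA, which reads the same on both strands, was found 97 to 89 bases before the start of Psmb8, in a stretch that a longer transcript of Psmb8 in GENCODE includes as exon. It stood in 4.65% of member windows, against 7.02% of all windows. CCGGAAG, bound by ETS factors, stood in 13 member windows of 12 genes (30.2%), Psmc1 and Psmc6 among them, against 6.91% of all windows. For each motif, all windows were counted whatever the level of the gene, and members were not compared with genes of like level. GAAANNGAAA, the interferon-stimulated response element, was in 6.98% of member windows and 2.98% of all windows. The members were Psmb3, Psmd4 and Psmd9, and no immunoproteasome subunit or activator was among them. CCAAT, the NF-Y box, was in 32.6% of member windows and 33.8% of all windows. In the printed sequences no matches overlapped each other. A match describes letters in these windows and is not evidence of binding.

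The ATPase ring of the cap, which unfolds substrates, held the one member whose groups did not overlap. Psmc1 had 150, 152, 152 and 150 FPKM in the control libraries and 146, 147 and 140, lower throughout, in KO_117, KO_214 and KO_218. The groups did not overlap, at 151 ± 1.47 (SD, n = 4) and 144 ± 3.66 FPKM (SD, n = 3). The same held for 1.53% of all genes tested. KO_218, the lowest library for Psmc1, was also low over all genes tested, with a median log2 deviation of -0.1 from the mean of the libraries. The difference was -0.06 (95% interval -0.37 to 0.24), with an exact permutation p of 0.0286, the smallest that 35 arrangements of the libraries allow. The exact permutation test was run on values that were not centred, and with median centring the difference was -0.04. In limma, which takes part of its spread from other genes of like level, Psmc1 had an unadjusted p of 0.636 and an adjusted p of 1. Psmc1 is on chromosome 12 (100110202 to 100123364, GRCm38.p6), and it had the narrowest spread between libraries of the members tested.

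The other ATPases overlapped between the groups. Psmc6 had the highest difference of the ring, with 83.0, 109, 114 and 69.5 FPKM in control and 88.2, 88.9 and 125 in Med23 CKO libraries (difference 0.11, 95% interval -0.44 to 0.65). The difference was -0.06 without KO_218 and -0.03 without WT_220. Psmc3, with 106, 95.9, 97.6 and 121 against 128, 91.6 and 85.2 FPKM, had a difference of -0.07 (95% interval -0.51 to 0.38). For Psmc3 the Med23 CKO libraries held both the highest and the lowest value.

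The 11 non-ATPase subunits of the cap, which bind ubiquitin chains and hold the lid together, had a median difference of 0.00. Psmd1, a scaffold subunit of the base, had the highest, with 72.4, 73.4, 76.3 and 68.3 FPKM in control and 80.9, 72.1 and 82.4 in Med23 CKO libraries (difference 0.11, 95% interval -0.21 to 0.43). KO_117 and KO_218 lay above all controls and KO_214 within them. Psmd3, a lid subunit on chromosome 11 (98682554 to 98695978, GRCm38.p6), had 107, 55.6, 70.7 and 133 FPKM in control and 132, 56.0 and 47.3 in Med23 CKO libraries. Its difference of -0.29 (95% interval -1.30 to 0.72) was -0.74 without KO_117 and -0.01 without KO_218. Psmd3 had the widest spread of the core and cap subunits, with high values in WT_215, WT_220 and KO_117 and low ones in the other libraries of both groups.

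The chaperones that assemble the cap had differences of 0.22 for Psmd5, 0.15 for Psmd10 and -0.18 for Psmd9. Psmd5 had 25.8, 32.8, 32.8 and 23.7 FPKM in control and 29.6, 36.6 and 34.2 in Med23 CKO libraries, and KO_214 and KO_218 were above all controls (95% interval -0.21 to 0.65). Psmd9 was, with 19.3, 20.4, 19.1 and 21.8 against 20.2, 17.7 and 15.3 FPKM, below all controls in KO_214 and KO_218 (95% interval -0.57 to 0.20). All 4 chaperones of the core had a lower mean in Med23 CKO, with a median difference of -0.20 and 0 of 4 called. The lowest was Psmg4, on chromosome 13 (34162964 to 34178172, GRCm38.p6), with 68.1, 39.7, 65.9 and 86.2 FPKM in control and 75.2, 35.8 and 45.6 in Med23 CKO libraries (difference -0.33, 95% interval -1.10 to 0.45). Its values overlapped, and the difference was -0.62 without KO_117 and -0.09 without KO_214. Psmg1, with 28.8, 22.6, 25.6 and 31.0 against 30.2, 20.5 and 27.2 FPKM, had the difference nearest 0 of these chaperones (-0.06, 95% interval -0.52 to 0.40). Pomp, a chaperone of core maturation that the symbol rule does not take in, had 217.7, 239, 241 and 238 against 181, 215.2 and 224 FPKM (difference -0.18, exact permutation p = 0.0857).

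Among the activators, Psme1 and Psme2, which form the interferon-inducible 11S ring, were highest in KO_214. Psme2 had 44.4, 55.2, 60.4 and 41.4 FPKM in control and 39.3, 93.2 and 49.4 in Med23 CKO libraries (difference 0.18, 95% interval -0.53 to 0.90), and without KO_214 the difference was -0.17. Psme1, at 36.3, 41.4, 47.0 and 41.6 against 38.4, 64.2 and 33.9 FPKM, had a difference of 0.08, and of -0.19 without KO_214. In KO_214, Psme1 was 1.37 times and Psme2 1.54 times the highest control, as were the summed microglia and interferon genes above theirs, whose part in the result was not tested. Psme3, the nuclear 11S activator, was high in other libraries, with 69.6, 42.8, 50.8 and 70.5 against 75.7, 39.1 and 47.5 FPKM (difference -0.13, 95% interval -0.80 to 0.53). Psme4, the PA200 activator, had a difference of 0.05 (95% interval -0.58 to 0.69). Psmf1, which encodes the regulator PI31, had 11.6, 11.3, 11.7 and 10.4 against 11.99, 12.6 and 9.79 FPKM (difference 0.02, 95% interval -0.37 to 0.41).

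KO_214 was the highest of the 7 libraries for 10 of 46 members (21.7%), against 25.4% of all genes tested. These were Psmb8, Psmb9, Psmb10, Psme1, Psme2, Psmd5, Psmd8, Psmd10, Psmd11 and Psmf1. The share was not above that of all genes tested. KO_218 was the lowest library for 16 of 46 members (34.8%), and for 23.8% of all genes tested. Its median log2 deviation from the mean of the libraries was -0.1 over all genes tested. Over the tested members other than the immunoproteasome subunits it was -0.06. The 2 variants limited to other tissues were not tested, since their mean was under 0.5 FPKM. Psma8, the testis form of an alpha subunit, was listed at 0 to 0.922 FPKM, and Psmb11, the thymus form of a catalytic subunit, at 0 to 0.0479 FPKM.

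WT_215, WT_220 and KO_117 were the 3 highest libraries for 11 of 46 members (23.9%), against 26.1% of all genes tested. These were Psmb3, Psmc3, Psmc4, Psmc5, Psmd3, Psmd7, Psmd13, Psme3, Psmg1, Psmg3 and Psmg4, and genes of proliferation were high in the same libraries. The share was near that of all genes tested, so the pattern was not particular to the proteasome genes. Mki67, a marker of dividing cells, had 60.6, 12.2, 25.1 and 56.6 FPKM in the control libraries and 86.5, 4.08 and 32.3 in KO_117, KO_214 and KO_218. The 15 cell cycle genes, all above 0, summed to 1329, 471, 711 and 1352 FPKM in control and 1777, 283 and 804 in Med23 CKO libraries. Their mean log2(FPKM + 1) was lower in Med23 CKO for all 15, with a median difference of -0.47. Of these, 0 of 15 had an unadjusted p under 0.05 in limma. The sum was highest in WT_215, WT_220 and KO_117, and its part in the spread of the proteasome genes was not tested. Adrm1, a ubiquitin receptor of the cap, was high in the same libraries, with 92.0, 65.2, 59.7 and 109 against 102, 69.6 and 48.5 FPKM. So was Ubqln2, a shuttle that brings ubiquitinated proteins to the proteasome, with 56.3, 26.4, 32.6 and 60.1 against 69.4, 24.2 and 25.5 FPKM. The panels of single genes show a wide gap to the other libraries for Psmd3, whereas for Psmg4 WT_215 (68.1 FPKM) was close to WT_213 (65.9 FPKM).

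**Figure D5:**
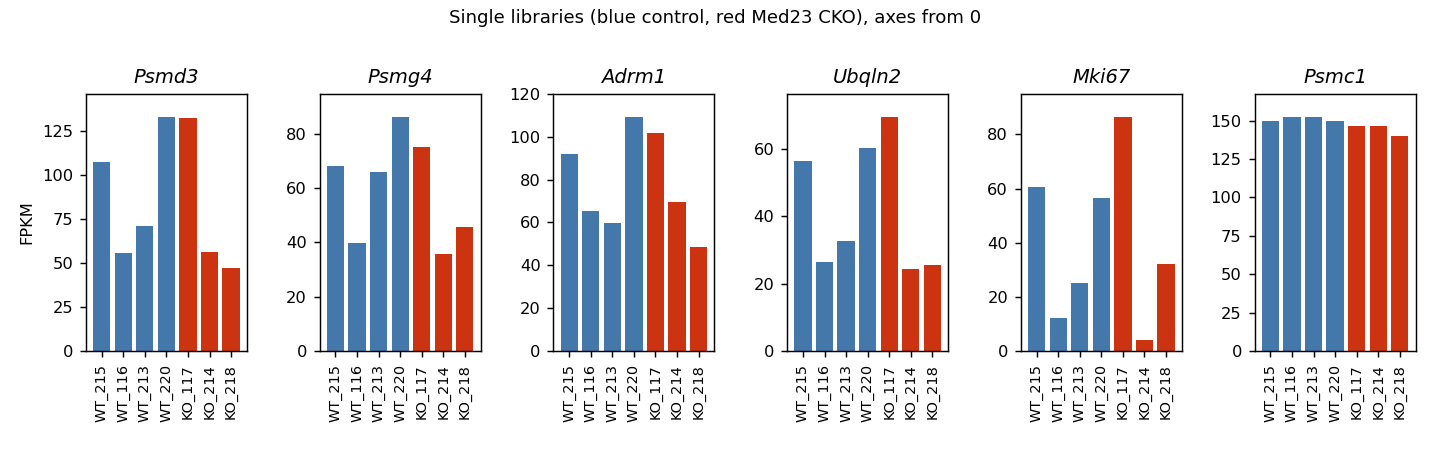
FPKM of Psmd3, Psmg4, Adrm1, Ubqln2, Mki67 and Psmc1 in each of the 7 libraries, control in blue and Med23 CKO in red, with bars from 0 and a scale of its own for each gene. WT_215, WT_220 and KO_117 are the 3 highest bars for the first 5 genes, while Psmc1 runs only from 140 to 152 FPKM.

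The genes that work with the proteasome were read from a list of 24 symbols, of which 22 were matched and tested. Their mean was higher in Med23 CKO for 14 and lower for 8, with a median difference of 0.01, and 0 had an unadjusted p under 0.05 in limma or under 0.05 in the exact permutation test. Nfe2l1, the transcription factor that raises proteasome genes when proteolysis is short, had 51.7, 54.0, 56.3 and 55.4 FPKM in control and 55.2, 94.1 and 57.1 in Med23 CKO libraries (difference 0.29, 95% interval -0.20 to 0.79, exact permutation p = 0.0857). KO_214 was 1.67 times the highest control for Nfe2l1 and 1.44 times for its relative Nfe2l2, and the other libraries of Nfe2l1 lay close together. Fbxo7, a ubiquitin ligase adaptor that binds PI31, had the widest spread of the list, with 17.5, 44.5, 24.4 and 10.3 against 7.33, 30.4 and 25.4 FPKM. Vcp, the ATPase that extracts substrates for the proteasome, had 241, 188, 216 and 241 against 277, 189 and 184 FPKM (difference -0.05).

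The 6 genes of ubiquitin supply had a median difference of -0.14 and 0 had an unadjusted p under 0.05 in limma or the exact permutation test. Ubb, a polyubiquitin gene, had 881, 845, 766 and 951 FPKM in control and 846, 775 and 540 in Med23 CKO libraries (difference -0.28, 95% interval -0.77 to 0.21), where KO_218 was below all others. Uba1, the main enzyme that activates ubiquitin, had 192, 145, 147 and 195 against 237, 141 and 130 FPKM (difference -0.05).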

How the data were processed

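RNA of primary hippocampal neurospheres, 1 mouse per library, was prepared with an unstranded kit and sequenced on Illumina HiSeq. The authors trimmed adapters, mapped the reads with Tophat (mm10) and deposited FPKM per gene and library from Cuffdiff. The deposited table also holds group means and the authors' own comparison (log2 fold change, test statistic, p-value and q-value), which were not used. It holds 0 columns of samples without a group. Read counts were not used here, so the depth is unknown and the number of libraries limits the precision.

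Genes averaging 0.5 FPKM or more were compared on log2(FPKM + 1) by limma 3.58.1 (eBayes with trend, two-sided, Benjamini-Hochberg over all genes tested) in R 4.3.3, which was tested on simulated data. Single genes were also tested by an exact permutation test over the 35 arrangements of 4 and 3 libraries, two-sided on its absolute size. Summaries and plots were made in Python 3.11.15 with pandas 2.3.3, numpy 2.4.6 and matplotlib 3.10.9. Mice were taken as replicates from the sample labels.

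The members, roles and gene lists were chosen with earlier results of these data known. Values per library were set to be given for Med23, the catalytic pairs, members past an unadjusted p of 0.05 or with groups that did not overlap, the highest and lowest difference of each role and the most and least abundant member. Psme1, Pomp, Adrm1, Ubqln2, Mki67, Nfe2l1, Fbxo7, Vcp, Ubb and Uba1 were chosen to be named after their values were seen. So were the named genes of the interferon and cell type lists. The alternatives were a pseudocount of 0.1, no filter and a minimum of 1 FPKM, median centring, quantile normalization, limma without trend, robust (statmod 1.5.0) or with array weights, a covariate from the leading digit of the mouse number, omission of each library, and the exact permutation test. Coordinates and promoter windows are RefSeq's for GRCm38.p6, and exon overlaps are from GENCODE M21.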

Additional observations from a re-analysis of the deposited data

How the results depend on the processing

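No proteasome gene passed the adjusted threshold in limma under any alternative (0 in each). The number of proteasome genes at an unadjusted p under 0.05 was 0 in limma with all libraries, 1 (Psmc1) by the exact permutation test, and 0 to 1 when each library was left out, the 1 being Psmb8 without KO_117. The median difference of the other proteasome genes stayed between -0.05 (array weights) and 0.00 (median centring). That of the 3 immunoproteasome subunits ran from -0.22 (without KO_214) to 0.70 (without KO_117) and was -0.02 with array weights (whose estimation stopped before it converged). Changed filters, limma without trend and robust limma cannot alter a difference, and omission of a library cannot move it by 1 SD. Of 384 values of 24 named genes, most of them fixed in this way, 378 lay within 1 SD of the reported one. The other 6 were Med23 (-0.43), Psmb7 (0.15), Psmc1 (-0.10) and Psmf1 (-0.15) with array weights, and Psmc1 with median centring (-0.04) and quantile normalization (-0.10); the cause was not tested. For 13 named genes the sign changed under at least 1 alternative, Psmb8 without KO_214 among them. The median of all genes lay between -0.09 and 0.00. No paired analysis by litter was possible because the labels do not give the litters. Unknown depth and 3 and 4 mice limit what could be seen, and genes with overlapping exons were counted without strand.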

Other observations

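Psme2b, a near copy of Psme2 on chromosome 11 (48945345 to 48946410, GRCm38.p6) whose symbol the rule did not take in, was listed at 0.374, 0, 0.296 and 0 FPKM in the control libraries and at 0, 2.00 and 0 in KO_117, KO_214 and KO_218. It was highest in KO_214, the library in which Psme2 was highest, and reads of the near-identical genes cannot be assigned with certainty. Beside Psmb8, Psmb9 and Psmd3, other members whose transcripts share exon bases with a gene on the opposite strand were Psmb7 with Nek6 (253 bases), Psmd13 with Sirt3 (152 bases), Psma4 with AY074887 (114 bases), Psmc3 with Slc39a13 (97 bases), Psma5 with 1700010K24Rik (60 bases) and Psme1 with Emc9 (7 bases). Reads of these stretches cannot be told apart without strand.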
